A study of Mus musculus with 18 samples.

Results

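Hippocampus and prefrontal cortex of 5xFAD mice that had been given only the vehicle, phosphate-buffered saline (PBS), were compared across all genes of the deposited expression table, by bulk RNA sequencing. The samples were chosen by their titles, as all 5xFAD PBS libraries of the 2 brain regions, and make up 6 of the 18 libraries of the series, 3 from each region. The mice were males of the strain C57BL/6J with the 5xFAD genotype, which as background carries human APP with familial Alzheimer mutations under the neuronal Thy1 promoter and deposits amyloid plaques in both regions. PBS went into a vein every 3 days for 10 injections, from 5 to 6 months of age, and the brains were taken after behavioural tests and perfusion with cold PBS. The other 12 libraries are wildtype C57BL/6J males given PBS on the same schedule and 5xFAD males given extracellular vesicles (EV) from human breast milk, each with 3 libraries from hippocampus and 3 from prefrontal cortex. Both serve here only to show whether a difference between the regions was of another size in 5xFAD PBS. The labels do not say that the 3 libraries of a group come from separate mice, nor that the same number in both regions stands for 1 mouse. The p-values therefore measure only how far these samples spread, and that spread may be technical.

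The hippocampus is an archicortical structure built from the granule cells of the dentate gyrus and the pyramidal neurons of CA3, CA2 and CA1, which pass information on in a loop that serves memory of places and events. The prefrontal cortex is a layered neocortical area in which neurons of the upper layers connect cortical areas with each other and neurons of the deep layers project to striatum, thalamus and brainstem. Around amyloid plaques, microglia take up a disease-associated state with raised Apoe, lysosomal and antigen presentation genes, and astrocytes turn on Gfap and other reactive genes. Hippocampus lies against the choroid plexus and the ependyma of the ventricle, and a dissected frontal block can include the rostral striatum.

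Values are given in FPKM, sequenced fragments scaled to gene length and to the library's total, in the order of replicates 1, 2 and 3. A difference is the mean of log2(FPKM + 0.5) in hippocampus minus that in cortex, so 1 stands for a 2-fold difference, understated for low genes, and a negative value means less in hippocampus. Genes were tested with limma, and a gene was called where its p, adjusted by Benjamini-Hochberg over all 13574 tested genes, was under 0.05. The reads behind the FPKM values could be recovered and amounted to 30806473 to 35937124 per library in the 6 libraries, at which 1 read on a gene of median length is worth 0.00864 to 0.0101 FPKM. Dentate granule markers summed to 289 to 328 FPKM in hippocampus and to 184 to 238 in cortex, and upper layer markers to 133 to 159.7 against 234 to 243, in the direction of the tissue labels. So did the sums of CA1, CA3, hippocampal patterning and neocortical identity genes. The layer 5 sum went with the labels (426 to 626 in hippocampus, 731 to 801 in cortex). The CA2 sum went against them (373 to 553 in hippocampus, 671 to 737 in cortex). Both lists hold Pcp4, which averaged 314 FPKM in hippocampus and 575 in cortex and made up most of both sums. Neither sum therefore stands for its other members. Other sums went against the labels: layer 6 and 6b markers (220 to 245 against 172 to 183) and claustrum and insular markers (160 to 179 against 149 to 155). Markers of neighbouring tissues also differed between the libraries. Choroid plexus markers summed to 2687 to 9089 FPKM in hippocampus and to 11.8 to 14 in cortex, and markers of striatal projection neurons to 519.8 to 717 FPKM in cortex and to 121 to 153 in hippocampus. Hippocampus replicate 2 stood apart from the other hippocampus libraries, with the highest sum of choroid plexus markers and the steepest trend over gene length relative to the mean of all libraries (a slope of -0.197 in log2 FPKM per log2 of length, against -0.0601 in replicate 3), so that its long genes read low and its short genes high. The part of these markers in each difference below was not tested. Some values are also given without that library or with the choroid plexus marker mean as a covariate. Neither can measure that part, because all hippocampus libraries carry the markers and the covariate separates the same libraries as the region does. A call lost with the covariate therefore does not show that the difference came from choroid plexus.

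Of 13574 genes tested, 3410 (25.1%) were called, 2082 (15.3%) higher and 1328 (9.78%) lower in hippocampus. On this scale 432 genes were more than 2-fold higher and 268 more than 2-fold lower, and 87 and 35 passed 4-fold. In 3353 of the called genes the 3 hippocampus libraries lay wholly above or wholly below the 3 cortex libraries, which was so for 5807 (42.8%) of all tested genes. The median log2 difference over all tested genes was 0.058. The split depended on scaling, since after quantile normalization 1708 genes were higher and 1799 lower, and the counts fell to 1264 and 876 without hippocampus replicate 2 and to 1292 higher without prefrontal cortex replicate 1. Adding the choroid plexus marker level to the model as a covariate left 281 genes higher and 138 lower. That level, a mean over the markers, lay between 3.18 and 4.51 on the log2 scale in hippocampus and between -0.31 and -0.24 in cortex, so it separates the same libraries as the region does. In wildtype given PBS 2156 genes (15.9%) were called, 1184 (8.72%) higher and 972 (7.16%) lower, and in 5xFAD given EV 2296 (16.9%), 8.6% higher and 8.31% lower. In bulk tissue fewer cells of a type and less RNA per cell cannot be told apart, which holds for every difference below.

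Granule cell genes of the dentate gyrus were mostly higher in hippocampus. Of 19 listed markers, 12 were higher in hippocampus and 2 lower, with a median of 0.50. C1ql2, a C1q-like protein that mossy fibre terminals release to organise glutamate receptors, stood at 44.1, 37.1 and 35.9 FPKM in hippocampus and at 0.26, 0.207 and 0.277 in cortex (log2 difference 5.72, SE 0.12, adjusted p = 1.34e-14). All hippocampus libraries lay far above all cortex libraries. Prox1, the transcription factor that sets and keeps granule cell identity, read 12.7, 8.74 and 10.8 against 1.63, 1.46 and 1.71 (log2 difference 2.41, SE 0.21, adjusted p = 9.9e-07). Dsp, a desmosomal plaque protein, read 5.83, 3.68 and 3.79 against 0.0521, 0.034 and 0.0273 (log2 difference 3.17, SE 0.21, adjusted p = 7.02e-08). Both genes were well measured in all hippocampus libraries. Lct, the gene of the digestive enzyme lactase, reached 6.68, 5.39 and 6.05 FPKM in hippocampus against 0.247, 0.0772 and 0.288 (log2 difference 3.22, SE 0.16, adjusted p = 4.42e-09). The tryptophan-degrading enzyme Tdo2 showed the same separation (4.2, 4.71 and 4.11 against 0.218, 0.369 and 0.0713, difference 2.77). All 5 genes were also called in wildtype, at 5.92, 2.73, 3.23, 3.58 and 2.32, and each remained called when any 1 of the 6 libraries was left out. With the choroid plexus covariate 6 of the markers were higher and 1 lower.

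Pyramidal neuron genes of CA1, CA2 and CA3 were for the most part higher in hippocampus as well, at 5 of 9, 5 of 9 and 8 of 13 tested markers, with 1, 2 and 2 lower. In CA1, Fibcd1, a receptor for acetylated glycans, read 31.3, 22.4 and 15.1 FPKM against 2.24, 1.75 and 1.63 (log2 difference 3.25, SE 0.23, adjusted p = 1.16e-07). Spink8, a serine protease inhibitor, read 17.8, 26.2 and 11.6 against 1.12, 1.8 and 1.08 (log2 difference 3.32, SE 0.29, adjusted p = 9.12e-07). Hippocampus replicate 3 was the lowest of its group for both genes and still lay far above each cortex library. Lefty1, an inhibitor of Nodal signalling, followed at 4.95, 6.42 and 3.68 against 0.441, 0.255 and 0.522 (log2 difference 2.59), and Gpr161, a receptor of the primary cilium, at 6.67, 5.1 and 4.32 against 0.808, 0.964 and 1.15 (difference 1.98). Tyro3, a receptor tyrosine kinase that marks CA1 among hippocampal fields, was the other way round, with 16.1, 15.9 and 18.7 in hippocampus and 44.9, 44.8 and 45.6 in cortex (log2 difference -1.39, SE 0.10, adjusted p = 1.71e-07).

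Among CA2 markers, the adhesion protein Amigo2 was higher in hippocampus (10.7, 10.4 and 8.39 against 3.16, 3.28 and 3.34, log2 difference 1.45, SE 0.15, adjusted p = 7.5e-06). The calmodulin-binding peptide Pcp4, which cortical deep layers also express, was lower (219, 316 and 406 against 548, 605 and 571, log2 difference -0.92, SE 0.19, adjusted p = 0.00215). Without hippocampus replicate 2 or without prefrontal cortex replicate 1, 3 CA2 markers in place of 5 were higher, and without prefrontal cortex replicate 3, 1 in place of 2 was lower. For CA3, the tetraspanin Tspan18 stood at 4.78, 4.71 and 3.97 against 0.474, 0.407 and 0.463 (log2 difference 2.39, SE 0.21, adjusted p = 1.07e-06). Iyd, an iodotyrosine deiodinase, read 2.7, 1.98 and 1.98 against 0.126, 0.0821 and 0 (log2 difference 2.25, SE 0.14, adjusted p = 3.83e-08). The kainate receptor subunit Grik4, which sits at mossy fibre synapses, rose less (7.08, 5.73 and 5.93 against 3.16, 2.91 and 3.23, log2 difference 0.90), and Coch, a secreted matrix protein, was lower (4.9, 7.12 and 4.76 against 12.7, 13.5 and 12.2, difference -1.15). The 8 higher CA3 markers were 4 without hippocampus replicate 1, 5 without prefrontal cortex replicate 2 or 3, and 5 under median-ratio scaling or quantile normalization. Without prefrontal cortex replicate 1, 1 CA3 marker in place of 2 was lower. With the choroid plexus covariate 5 CA1, 1 CA2 and 2 CA3 markers were higher.

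Transcription factors that pattern or maintain hippocampal neurons ran higher too, with 6 of 13 called, none lower and a median of 0.58, although 1 was lower without hippocampus replicate 3 and 3 were higher with the choroid plexus covariate. Lhx9, a LIM homeobox gene, was nearly confined to hippocampus (1.97, 1.77 and 1.77 against 0.0305, 0.0523 and 0.0103 FPKM, log2 difference 2.14, SE 0.11, adjusted p = 4.42e-09). Nr3c2, the mineralocorticoid receptor, through which hippocampal neurons sense low levels of corticosterone, stood at 22.8, 17.8 and 15.5 against 5.51, 5.23 and 5.94 (log2 difference 1.65, SE 0.13, adjusted p = 3.55e-07). The difference of Nr3c1, the glucocorticoid receptor, was -0.28 (adjusted p = 0.0512). The proneural factors Neurod6 (119.8, 128 and 109 against 50.5, 56.9 and 42.6) and Neurod2 (35.3, 33.7 and 31.4 against 19.9, 21.3 and 20.1) differed by 1.25 and 0.70. Genes of adult neurogenesis did not run with the dentate markers, since 3 of 13 were higher and 6 lower. Without hippocampus replicate 2 or prefrontal cortex replicate 1, 1 was higher, and without prefrontal cortex replicate 3, 2 were higher; with the covariate 1 was higher and 1 lower. Doublecortin, Dcx, the microtubule protein of young migrating neurons, read 1.35, 0.815 and 1.3 in hippocampus and 3.41, 2.89 and 3.75 in cortex (log2 difference -1.23, SE 0.17, adjusted p = 8.56e-05). Stathmin, Stmn1, read 291, 351 and 439.8 against 778, 909.5 and 738 (log2 difference -1.18, SE 0.20, adjusted p = 0.00062). Doublecortin and stathmin were lower in hippocampus in wildtype as well (-1.09 and -1.07).

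Neocortical identity genes were higher in cortex. Mef2c, an activity-regulated factor of excitatory neurons that microglia also express, read 3.46, 2.32 and 4.81 FPKM in hippocampus and 15.2, 14 and 13.8 in cortex (log2 difference -1.93, SE 0.26, adjusted p = 6.31e-05). Tbr1, a factor of early-born cortical neurons, read 9.24, 8.54 and 12.1 against 31.6, 33.6 and 29.4 (log2 difference -1.63, SE 0.20, adjusted p = 3.88e-05). In both genes hippocampus replicate 3 was the highest of its group and still lay well below the lowest cortex library. The LIM-only factor Lmo4 fell as well (log2 difference -0.73), and Nr2f2, a nuclear receptor of caudal and ventral telencephalon, rose in hippocampus (6.38, 5.38 and 7.08 against 1.4, 1.58 and 1.49, log2 difference 1.76, SE 0.16, adjusted p = 1.93e-06). Of 13 listed identity genes, 4 were lower and 1 higher, and none was lower with the choroid plexus covariate.

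Of 17 upper layer markers, 10 were lower in hippocampus and 2 higher, with a median of -0.94, and with the covariate 1 was higher and 1 lower. Lamp5, a lysosome-related membrane protein of upper layer and neurogliaform neurons, stood at 15.8, 16.1 and 22 against 81.1, 83.8 and 83.5 FPKM (log2 difference -2.19, SE 0.26, adjusted p = 2.59e-05), with little spread among the cortex libraries. The homeobox gene Cux2 (2.39, 1.83 and 3.84 against 7.68, 6.49 and 7.86, difference -1.34), the POU factor Pou3f2 (1.23, 1.18 and 1.56 against 4.51, 4.61 and 6.14, difference -1.61) and the guanine exchange factor Rasgrf2 (difference -0.99) moved with it. The sodium channel subunit Scnn1a, used as a layer 4 marker, was an exception at 1.83, 2.51 and 2.46 in hippocampus against 0.434, 0.504 and 0.682 (log2 difference 1.41, SE 0.16, adjusted p = 1.43e-05). Deep layer lists were mixed, with 4 higher and 3 lower of 16 layer 5 markers, and 4 and 4 of 16 layer 6 markers. Within layer 6, Syt6, a synaptotagmin of corticothalamic neurons, stood at 0.798, 0.896 and 1.16 against 5.24, 5.63 and 6.88 (log2 difference -2.14, SE 0.20, adjusted p = 1.93e-06). Foxp2, a forkhead factor of the same cells, read 0.329, 0.315 and 0.782 against 2.82, 3.06 and 3.18 (log2 difference -1.88, SE 0.29, adjusted p = 0.000217). Crym, a thyroid hormone binding protein, was higher in hippocampus (142, 174 and 127 against 68.8, 80.4 and 67.9, log2 difference 1.02, SE 0.20, adjusted p = 0.00143). Without hippocampus replicate 3, 7 layer 6 markers in place of 4 were lower.

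**Figure D1:**
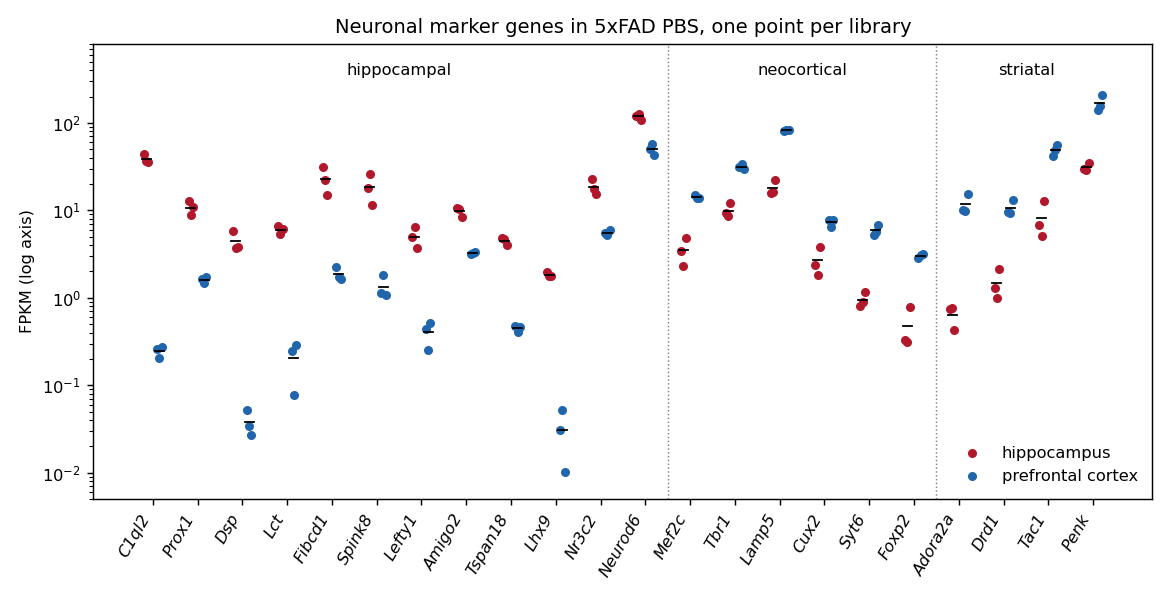
FPKM on a log axis of 12 hippocampal, 6 neocortical and 4 striatal marker genes in the 3 hippocampus (red) and 3 prefrontal cortex (blue) libraries of 5xFAD PBS, with a bar at each mean. No gene shown has a hippocampus library within the range of the cortex libraries, and C1ql2 lies at 35.9 to 44.1 in hippocampus and 0.207 to 0.277 in cortex.

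Genes of striatal projection neurons were lower in hippocampus. Of 19 such markers, 16 were lower in hippocampus, none higher, with a median of -1.77, and 0 were called lower with the choroid plexus covariate. Sizes held better than calls. Over all 19 settings, the covariate included, the weakest differences were -2.94 for Adora2a, -2.11 for Drd1 and -2.47 for Scn4b. For Penk, Tac1 and Drd2 they were -2.23, -1.95 and -2.16. Adora2a, the adenosine receptor of the indirect pathway, read 0.74, 0.756 and 0.424 FPKM in hippocampus and 10.2, 9.75 and 15.5 in cortex (log2 difference -3.42, SE 0.74, adjusted p = 0.00319). The dopamine receptor Drd1 of the direct pathway read 1.31, 0.995 and 2.15 against 9.7, 9.25 and 13 (log2 difference -2.52, SE 0.54, adjusted p = 0.00277). The sodium channel subunit Scn4b read 3.53, 3.65 and 6.35 against 39.2, 33.8 and 48.2 (log2 difference -3.06, SE 0.40, adjusted p = 5e-05). In each of these 3 genes prefrontal cortex replicate 3 was the highest library, as it was for the summed list. The opioid precursor Penk (29.9, 29 and 34.8 against 141, 155 and 209, difference -2.40) and the tachykinin precursor Tac1 (6.89, 5.1 and 12.8 against 41.3, 49.4 and 56, difference -2.58) are also made by cortical interneurons. The dopamine receptor Drd2 was called (1.25, 1.32 and 1.23 against 7.71, 8.15 and 12, log2 difference -2.45, SE 0.76, adjusted p = 0.0267) but passed in none of the 6 fits that left out a library, where its adjusted p lay between 0.0536 and 0.0867. In wildtype, 14 of the 19 were lower in hippocampus, and the summed level spread from 346 to 954 FPKM over the 3 wildtype cortex libraries.

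Among the 20 largest falls were also genes outside every list of cortical layers or striatum. Dkkl1, a secreted relative of the Dickkopf Wnt inhibitors, had the largest of all, at 0.959, 1.26 and 2.83 against 24.8, 26.6 and 25.7 FPKM (log2 difference -3.68, SE 0.48, adjusted p = 5.77e-05). Rasgef1c (0.746, 0.541 and 1.41 against 13.2, 11.4 and 12.9, difference -3.26) and Rasgef1b (4.14, 4.37 and 7.19 against 30.7, 27.4 and 28.5, difference -2.39), guanine exchange factors of Ras family proteins, were both lower. Also lower were the extracellular protein Abi3bp (0.337, 0.213 and 0.218 against 5.15, 3.69 and 7.59, difference -2.94), the slow-type troponin Tnnc1 (1.9, 2.28 and 1.69 against 12.9, 22.1 and 14.6, difference -2.76) and the calcium-dependent phospholipid binder Cpne5 (3.15, 4.0 and 5.1 against 21.2, 22.5 and 22.4, difference -2.32). Tyrosine hydroxylase, Th, the rate-limiting enzyme of dopamine synthesis, read 0.184, 0.406 and 1.3 in hippocampus and 4.86, 4.65 and 5.92 in cortex (log2 difference -2.44, SE 0.40, adjusted p = 0.000391). Doc2g, a double C2 domain protein, read 0.919, 1.61 and 0.744 against 13.5, 9.44 and 13.1 (log2 difference -3.00, SE 0.41, adjusted p = 8.77e-05). Both are known from the olfactory bulb, as is the calcium binder S100a5, which read 0.0367, 0 and 0 against 1.24, 1.99 and 3.4 and whose call (adjusted p = 0.029) was lost when prefrontal cortex replicate 2 or 3 or any hippocampus library was left out (0.0578 to 0.106). The part of olfactory tissue in these differences was not tested.

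Interneuron genes were lower in hippocampus at 14 of 29 markers and higher at 1, with a median of -0.52, and 2 were lower with the covariate. Vasoactive intestinal peptide, Vip, stood at 8.25, 8.42 and 9.41 FPKM in hippocampus and 24.6, 32.7 and 26.5 in cortex (log2 difference -1.62, SE 0.24, adjusted p = 0.000175). Neuropeptide Y, Npy, read 61.3, 88.7 and 70.8 against 139, 189.96 and 177 (log2 difference -1.20, SE 0.21, adjusted p = 0.000731). Corticotropin-releasing hormone, Crh, read 0.565, 0.738 and 1.24 against 3.39, 2.19 and 3.71 (log2 difference -1.42, SE 0.26, adjusted p = 0.000928). Somatostatin, Sst, the peptide of dendrite-targeting interneurons, read 243, 287 and 262 against 208, 284 and 239.9, and the 2 ranges overlapped (log2 difference 0.12, adjusted p = 0.666, and -0.09 with the trend over gene length removed). The 1 marker that was higher, Prox1, is also the granule cell gene described above. Prodynorphin, Pdyn, was lower (5.5, 5.55 and 6.2 against 17.6, 20.6 and 20.7, difference -1.69). So were the kappa and delta opioid receptors, Oprk1 (0.151, 0.158 and 0.463 against 3.01, 2.41 and 3.09, difference -2.16) and Oprd1 (2.02, 1.28 and 1.88 against 5.76, 4.14 and 4.32, difference -1.24). The nociceptin precursor Pnoc was higher (3.46, 4.55 and 4.99 against 2.7, 2.58 and 2.22, difference 0.68). Over all 37 neuropeptide genes, 5 were higher and 12 lower. Of the peptide receptors, Npy2r, a presynaptic neuropeptide Y receptor, read 14.8, 13.1 and 12 against 1.17, 1.27 and 1.96 (log2 difference 2.83, SE 0.19, adjusted p = 6.73e-08). Cckbr, the brain cholecystokinin receptor, read 3.95, 3.79 and 8.06 against 23.2, 28.9 and 22.9 (log2 difference -2.21, SE 0.31, adjusted p = 9.68e-05).

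Genes of AMPA receptors, which carry fast excitation, and of their auxiliary proteins were more often lower than higher in hippocampus. Of 23 genes, 12 were lower and 5 higher, with a median of -0.46. Their summed level went the other way, at 1086 to 1202 FPKM in hippocampus and 1005 to 1039 in cortex. The pore subunit Gria1 stood at 180.4, 142 and 139 FPKM in hippocampus and 77.9, 69 and 73.8 in cortex (log2 difference 1.05, SE 0.12, adjusted p = 1.89e-05). The auxiliary protein Cnih2, which slows channel closing, read 224, 255 and 184 against 108, 127 and 116 (log2 difference 0.91, SE 0.16, adjusted p = 0.000681). The auxiliary protein Shisa6, which holds receptors at the synapse, read 19.3, 14.1 and 12.4 against 1.78, 1.62 and 1.91 (log2 difference 2.77, SE 0.45, adjusted p = 0.000359). Gsg1l, an auxiliary protein that dampens AMPA currents, went the other way at 7.14, 5.63 and 11.6 against 27.3, 24 and 26.9 (log2 difference -1.68, SE 0.22, adjusted p = 5e-05). The 12 lower genes of this list were 6 without hippocampus replicate 2 and 7 without prefrontal cortex replicate 3. Of 15 NMDA, kainate and delta receptor genes, 2 were higher and 2 lower, and 1 was higher without hippocampus replicate 1 or any 1 of the cortex libraries. Besides Grik4, the NMDA subunit Grin2a was higher (13.6, 9.37 and 10.4 against 7.89, 7.43 and 7.7, log2 difference 0.49, SE 0.16, adjusted p = 0.031). The kainate subunit Grik3 was lower (3.87, 2.33 and 4.21 against 11.5, 8.47 and 9.82, log2 difference -1.42, SE 0.22, adjusted p = 0.000222), as was the kainate receptor auxiliary protein Neto2 (8.75, 6.78 and 8.83 against 14, 15.5 and 14.9, difference -0.83). The obligatory NMDA subunit Grin1 read 84.3, 69.7 and 81.8 against 89.5, 87.5 and 92.3 (difference -0.20, adjusted p = 0.14). The metabotropic receptors Grm8 (1.5, 1.56 and 1.94 against 4.7, 4.19 and 4.2, difference -1.17) and Grm3 (8.45, 7.65 and 8.78 against 16.6, 14.5 and 16, difference -0.88) were lower in hippocampus. The postsynaptic scaffold Homer3 was higher (18.9, 17.2 and 13.8 against 2.08, 2.79 and 2.33, log2 difference 2.56, SE 0.66, adjusted p = 0.01).

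Subunits of the GABA A receptor differed in both directions. Gabra5, the alpha subunit of extrasynaptic receptors that carry tonic inhibition in hippocampal pyramidal cells, stood at 64.2, 60.3 and 54.8 FPKM in hippocampus against 20.1, 21.7 and 17.5 in cortex (log2 difference 1.58, SE 0.11, adjusted p = 1.71e-07). Gabra3 was lower, at 24.3, 18.4 and 27.6 against 62.9, 66.1 and 56.9 (log2 difference -1.40, SE 0.13, adjusted p = 2.62e-06). The delta subunit Gabrd was lower as well (9.2, 10.3 and 14.8 against 30.2, 34.5 and 35.9, log2 difference -1.54, SE 0.18, adjusted p = 2.25e-05). The list of 14 GABA receptor genes also holds the GABA B receptor genes Gabbr1 and Gabbr2. In it Gabra5 was the 1 higher gene and 6 were lower, Gabbr2 among them (log2 difference -0.42, adjusted p = 0.013). With the covariate 2 of the list were lower. Gabra5, Gabra3 and Gabrd differed in the same direction in wildtype, by 1.41, -1.29 and -1.31.

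Receptors for the monoamines divided between the regions by subtype. Among the serotonin receptors, the inhibitory subtype Htr1a was higher in hippocampus (8.76, 7.06 and 8.66 against 4.66, 5.35 and 4.81, log2 difference 0.67, SE 0.14, adjusted p = 0.00308). The stimulatory subtype Htr4 was higher (1.68, 0.956 and 1.27 against 0.0943, 0.331 and 0.249, log2 difference 1.31, SE 0.24, adjusted p = 0.000902). Htr5b was higher too (1.26, 1.38 and 0.916 against 0.134, 0.0877 and 0.107, log2 difference 1.46, SE 0.11, adjusted p = 2.56e-07). Htr2a, the excitatory receptor of cortical pyramidal cells at which classical hallucinogens act, was lower, at 2.29, 1.6 and 1.86 against 13.7, 7.65 and 8.59 FPKM (log2 difference -2.08, SE 0.26, adjusted p = 3.97e-05). Together 4 of 12 serotonin receptors were higher and 5 lower, and 3 were lower without hippocampus replicate 2 or without prefrontal cortex replicate 1. Of 13 receptors for dopamine, noradrenaline and histamine, 2 were higher and 8 lower, and 4 were lower without hippocampus replicate 2 or without prefrontal cortex replicate 3 and 5 without hippocampus replicate 1. The first of the higher genes was Drd5 (4.73, 4.29 and 3.24 against 1.07, 1.29 and 1.3, log2 difference 1.41, SE 0.13, adjusted p = 1.93e-06), a dopamine receptor that hippocampus is known to express. The adrenergic receptor Adra1d was the other (21.3, 17.1 and 13.8 against 10.7, 11.6 and 10.00, difference 0.65). Adra1b (0.907, 0.738 and 1.65 against 6.37, 7.38 and 5.67, difference -2.16) and the histamine autoreceptor Hrh3 (16, 14.3 and 17.6 against 33.8, 42.2 and 42.2, difference -1.27) were lower. The muscarinic receptors Chrm2 (1.07, 1.08 and 1.5 against 3.03, 3.2 and 3.18, difference -1.09) and Chrm4 (3.75, 3.59 and 4.2 against 7.55, 8.65 and 8.58, difference -1.01) were lower too. For Chrm1, the main muscarinic receptor of pyramidal cells, the libraries overlapped (38.4, 29.9 and 31.3 against 29.9, 29.3 and 31.1, adjusted p = 0.554).

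**Figure D2:**
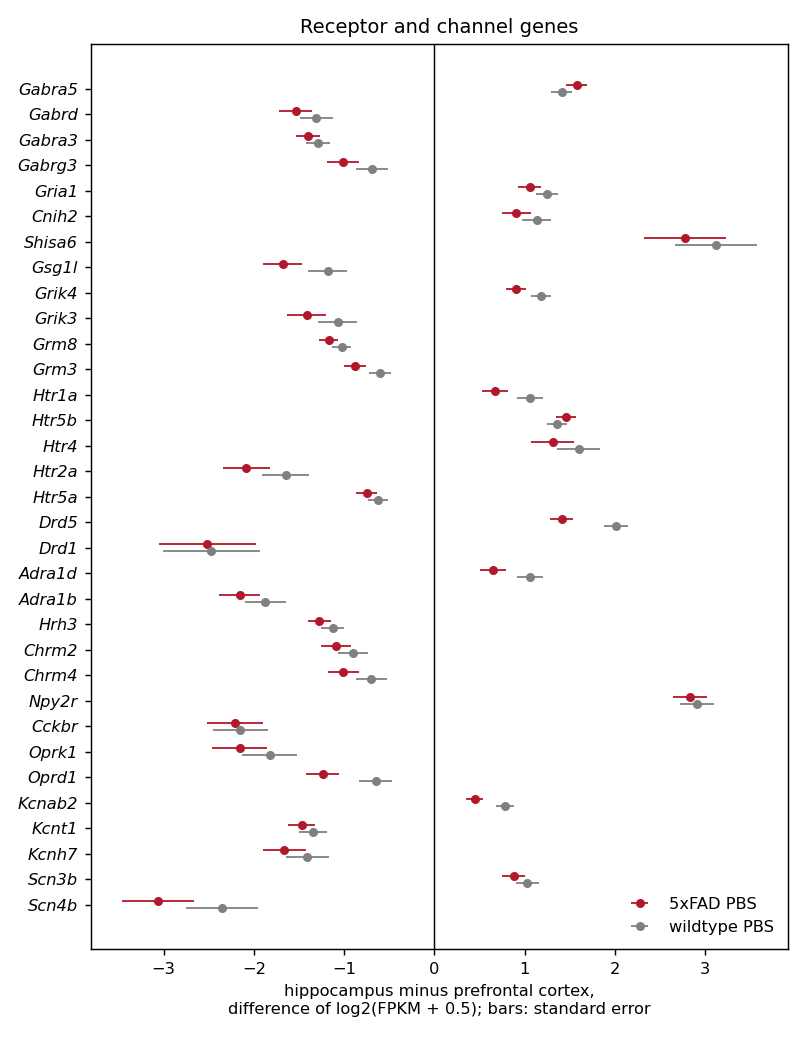
Difference between hippocampus and prefrontal cortex in log2(FPKM + 0.5), with its standard error, of 33 receptor and channel genes in 5xFAD PBS (red) and wildtype PBS (grey). Points right of 0 are higher in hippocampus; each gene lies on the same side of 0 in both genotypes, from Npy2r at 2.83 to Scn4b at -3.06 in 5xFAD PBS.

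Ion channel and release genes leaned towards cortex. Of 45 potassium and HCN channel genes, 20 were lower in hippocampus and 2 higher, with a median of -0.28. Kcnt1, a sodium-activated potassium channel, stood at 3.36, 3.35 and 4.25 against 10.5, 10.4 and 12 FPKM (log2 difference -1.47, SE 0.15, adjusted p = 5.78e-06). Kcnh7, an ether-a-go-go related channel, read 1.11, 0.604 and 1.01 against 4.77, 3.01 and 4.11 (log2 difference -1.66, SE 0.24, adjusted p = 0.000114). The auxiliary subunit Kcnab2 was higher in hippocampus (144, 128 and 132 against 102, 92.4 and 102, log2 difference 0.44, SE 0.10, adjusted p = 0.00306). Sodium and calcium channels had 8 of 23 lower, which was 5 without hippocampus replicate 2 or without prefrontal cortex replicate 1 or 3, and 1 higher, the sodium channel subunit Scn3b (70.8, 58.9 and 59.8 against 33.5, 34.2 and 34.2, log2 difference 0.88, SE 0.13, adjusted p = 0.00013). Many channel genes are long, and with the trend over gene length removed 5 potassium channel genes and 5 sodium and calcium channel genes were higher in hippocampus. Of 28 presynaptic genes, 14 were lower and none higher, and 8 were lower without hippocampus replicate 2 and 9 without prefrontal cortex replicate 1 or 3. Stx1a, a syntaxin of the vesicle fusion machinery, stood at 28.7, 26.8 and 34.9 against 96.8, 98.6 and 90.3 (log2 difference -1.65, SE 0.19, adjusted p = 1.76e-05). Its partner Snap25 read 949.7, 1053 and 1076 against 1495, 1684 and 1526 (log2 difference -0.61, SE 0.13, adjusted p = 0.00218). Synaptophysin, Syp, the most abundant vesicle protein, read 604, 596 and 633 against 627, 665 and 634 with overlap (log2 difference -0.07, adjusted p = 0.6).

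Adhesion and guidance molecules split, with 14 of 59 higher and 22 lower (2 and 4 with the choroid plexus covariate). Protocadherin Pcdh20 stood at 25.5, 19.4 and 20.4 FPKM in hippocampus against 4.28, 3.17 and 4.02 in cortex (log2 difference 2.36, SE 0.14, adjusted p = 2.66e-08). The axon repellent Slit1 read 23.6, 14.8 and 17.8 against 6.68, 5.31 and 5.73 (log2 difference 1.56, SE 0.20, adjusted p = 5e-05). The semaphorin receptor Nrp1 read 11.1, 8.38 and 8.79 against 3.01, 3.01 and 3.01 (log2 difference 1.49, SE 0.12, adjusted p = 3.13e-07). Lower were Pcdh10 (9.04, 6.24 and 9.42 against 24.4, 21.3 and 22.2, difference -1.42), Cdh6 (0.968, 0.827 and 1.29 against 3.63, 2.76 and 3.64, difference -1.33) and the ephrin Efna5 (1.47, 1.18 and 1.64 against 3.81, 4.3 and 4.73, difference -1.31). Without prefrontal cortex replicate 2 or hippocampus replicate 1, 9 genes of the list in place of 14 were higher. Calcium-binding proteins also split, with hippocalcin, Hpca, at 742, 866 and 621 against 284, 329 and 327 (log2 difference 1.24, SE 0.17, adjusted p = 6.75e-05). The kinase Camkk2 read 12.7, 10.3 and 13.4 against 33.4, 28.8 and 32.8 (log2 difference -1.35, SE 0.11, adjusted p = 3.13e-07). Hippocalcin is the calcium sensor named for its abundance in hippocampal pyramidal cells.

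Microglial genes were higher in hippocampus than in cortex of the plaque-bearing mice. Of 14 markers of microglia in all states, 8 were higher and none lower (median 0.56), and their summed level was 1143 to 1246 FPKM in hippocampus and 725 to 765 in cortex. In wildtype the same sum was 282 to 335 in hippocampus and 266 to 347 in cortex, and none of the 14 was called by limma (median 0.06, 0 at an unadjusted p under 0.05, 0 by voom). The complement subunit C1qa stood at 259, 224 and 244 FPKM against 146, 144 and 141 (log2 difference 0.75, SE 0.19, adjusted p = 0.00987). C1qb read 201, 209 and 225 against 119, 139 and 122 (log2 difference 0.74, SE 0.20, adjusted p = 0.0123). The cysteine protease Ctss read 349, 307 and 308 against 207, 211 and 192 (log2 difference 0.66, SE 0.17, adjusted p = 0.0108). Every hippocampus library lay above every cortex library for these 3 genes. With the covariate 9 were called. The 8 called markers were 4 without prefrontal cortex replicate 1 and 5 without prefrontal cortex replicate 2 or 3 or hippocampus replicate 1.

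Disease-associated microglia genes showed 17 of 33 higher and none lower, with a median of 0.57, against 3 of 33 and a median of 0.04 in wildtype. Apoe, the lipid carrier that these cells raise, stood at 1327, 1559 and 1347 FPKM against 829, 913 and 902 (log2 difference 0.68, SE 0.16, adjusted p = 0.00509). The lysosomal protease Ctsd read 962, 916 and 867 against 638, 566 and 617 (log2 difference 0.59, SE 0.14, adjusted p = 0.00686). The tetraspanin Cd63 read 87.3, 130.2 and 88 against 45.6, 51.2 and 48.9 (log2 difference 1.04, SE 0.17, adjusted p = 0.000374). The galectin Lgals3 read 6.73, 8.9 and 9.76 against 3.55, 2.97 and 3.0 (log2 difference 1.27, SE 0.24, adjusted p = 0.00129). For Apoe, Cd63 and Lgals3 other cell types are a known source, among them astrocytes and choroid plexus epithelium, and for Cd63 hippocampus replicate 2, the library with most choroid plexus markers, was the highest. Trem2, the microglial lipid receptor that drives the state, read 88.6, 77.9 and 76.7 against 57.4, 53.5 and 52.9, without overlap but short of the threshold (log2 difference 0.56, SE 0.21, adjusted p = 0.0569). The count of 17 fell to 10 without prefrontal cortex replicate 2 or hippocampus replicate 1, to 11 without prefrontal cortex replicate 1, and to 11 with the choroid plexus covariate. Among 15 homeostatic microglia genes 2 were higher and 1 lower, with a median of 0.29. The lower one was Mef2c, described above among the neocortical identity genes, which excitatory neurons also express. Higher genes numbered 0 to 8 over the alternatives tried. There were 0 without prefrontal cortex replicate 1, 2 or 3 or hippocampus replicate 1, and 1 without hippocampus replicate 2 or 3. P2ry12, the purine receptor of resting microglia, read 36.9, 33.6 and 32.7 against 30.9, 36.3 and 36.2 (difference -0.001, adjusted p = 0.997). None of 8 markers of border macrophages was called by limma, 2 passed an unadjusted p of 0.05 and 0 were called by voom.

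Antigen presentation genes were higher in hippocampus under every alternative tried, the choroid plexus covariate included. Of 10 genes of MHC class I presentation, 9 were higher in hippocampus with a median of 0.87, and of 6 genes of MHC class II presentation, 5 with a median of 1.71. In wildtype 1 of 10 and 0 of 6 were called by limma, with medians of 0.07 and -0.07. Of the 6 class II genes 0 passed an unadjusted p of 0.05 there, and 0 were called by voom. MHC class I molecules show peptides from inside the cell to cytotoxic T cells, and their genes are read from promoters with an upstream enhancer, called enhancer A, to which NF-kappaB factors bind. MHC class II molecules show ingested antigen to helper T cells and, in brain, are mostly made by microglia and border macrophages under promoters with conserved X and Y boxes. The promoters of 2 genes of each class are shown, as the 200 bases before the first listed start in RefSeq (build GRCm38.p6, which differs from the build of the data), written 5′ to 3′ on the gene's strand. Capitals mark enhancer A in H2-D1 and H2-K1, the Y box CTGATTGG in H2-Aa and H2-Eb1 and the X box core in H2-Eb1. The windows lie at chr17:35262894-35263093 on the plus strand for H2-D1, chr17:34000348-34000547 on the minus strand for H2-K1, chr17:34287824-34288023 on the minus strand for H2-Aa and chr17:34305667-34305866 on the plus strand for H2-Eb1.
H2-D1: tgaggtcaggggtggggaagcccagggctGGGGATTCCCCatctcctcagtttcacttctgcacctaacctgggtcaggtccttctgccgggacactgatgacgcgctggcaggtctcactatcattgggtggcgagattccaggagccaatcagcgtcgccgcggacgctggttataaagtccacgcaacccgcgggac
H2-K1: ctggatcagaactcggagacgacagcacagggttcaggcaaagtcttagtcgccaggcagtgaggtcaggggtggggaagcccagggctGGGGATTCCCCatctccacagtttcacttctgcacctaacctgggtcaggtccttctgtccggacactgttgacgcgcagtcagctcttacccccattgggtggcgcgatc
H2-Aa: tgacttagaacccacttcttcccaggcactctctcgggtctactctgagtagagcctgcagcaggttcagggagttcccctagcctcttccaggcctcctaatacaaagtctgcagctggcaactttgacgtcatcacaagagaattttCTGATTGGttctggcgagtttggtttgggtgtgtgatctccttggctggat
H2-Eb1: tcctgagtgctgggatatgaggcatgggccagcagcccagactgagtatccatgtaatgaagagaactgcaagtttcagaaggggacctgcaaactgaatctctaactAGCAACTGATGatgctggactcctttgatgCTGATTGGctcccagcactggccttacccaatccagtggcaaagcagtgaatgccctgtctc

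Each motif was searched on both strands of the same 200 bases of all 27025 genes with a listed promoter. The enhancer A motif was in 75 (0.278%), CTGATTGG in 1110 (4.11%) and the X box core in 54 (0.2%). Of the 9 class I list genes with a promoter in the table, 2 held the enhancer A motif and 3 held CTGATTGG, H2-D1 among them, where it is not in capitals. Of 4 class II genes, 2 held CTGATTGG and 2 the X box core. A match is a description of the letters, not evidence of binding. In hippocampus the 2 class I genes, which encode the heavy chains, stood at 151, 97 and 109 FPKM (H2-D1) and 62.1, 45.1 and 57.2 (H2-K1), against 64.4, 63.3 and 59.3 and 28.2, 28.2 and 26.9 in cortex, with differences of 0.90 (SE 0.17, adjusted p = 0.00142) and 0.96 (SE 0.16, adjusted p = 0.00036). H2 genes are near copies of each other, so reads may be shared between members. B2m, the light chain that all class I molecules need, has no such copy and read 634, 600.3 and 614 against 356, 395 and 339.7 (log2 difference 0.76, SE 0.18, adjusted p = 0.00611).

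The peptide supply for class I rose alongside, with the immunoproteasome subunit Psmb8 at 13.4, 15.3 and 23.7 FPKM against 7.91, 8.78 and 7.06 (log2 difference 1.06, SE 0.24, adjusted p = 0.00468). The peptide transporter Tap1 read 3.52, 3.19 and 6.7 against 2.25, 2.07 and 2.15 (log2 difference 0.84, SE 0.22, adjusted p = 0.00995). The loading protein Tapbp read 19.8, 23.6 and 23.9 against 12.7, 15.1 and 14.4 (log2 difference 0.65, SE 0.13, adjusted p = 0.00181). Hippocampus replicate 3 was the highest library for Psmb8 and Tap1. The class II alpha chain H2-Aa stood at 26, 13.4 and 32 against 4.26, 6.48 and 8.07 (log2 difference 1.80, SE 0.40, adjusted p = 0.0038). The class II beta chain H2-Eb1 read 9.93, 6.29 and 18 against 2.26, 3.16 and 3.55 (log2 difference 1.67, SE 0.35, adjusted p = 0.00239). The invariant chain Cd74 read 82.6, 29.8 and 93.3 against 13.8, 19.1 and 18.8 (log2 difference 1.82, SE 0.45, adjusted p = 0.00716). For these 3 genes hippocampus replicate 2 was the lowest of its group. Over the alternatives tried, 8 to 11 class I and 4 to 5 class II genes were higher, with 9 and 4 under the choroid plexus covariate and the 11 in a fit with no filter on low values, which tests more members. The difference between genotypes in the regional difference, tested directly, was 0.87 for H2-D1 (adjusted p = 0.53), 0.78 for B2m (0.626) and 1.94 for Cd74 (0.601), none of which passed.

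Complement, interferon-induced and lysosomal genes were higher in hippocampus at 11 of 14, 7 of 25 and 15 of 26 members, with none lower. The immune and glial lists share members, so their counts and medians are not separate results. C1qa, Ctss, Cd74 and C4b, for example, each count in more than 1 list. C4b, the complement component that reactive astrocytes and oligodendrocytes make, stood at 33.6, 20.4 and 23.3 FPKM against 11.9, 8.02 and 9.82 (log2 difference 1.32, SE 0.15, adjusted p = 1.86e-05). C3, the central component, read 1.26, 1.22 and 0.822 against 0.224, 0.159 and 0.319 (log2 difference 1.12, SE 0.17, adjusted p = 0.000226). Both were also called higher in wildtype hippocampus (1.11 and 0.98). Bst2, an interferon-induced tether of viral particles, stood at 22.1, 47.6 and 42.6 against 12.2, 11.4 and 12.2 (log2 difference 1.53, SE 0.25, adjusted p = 0.000321). Ifi27 read 59.3, 126 and 69.5 against 32.3, 30.9 and 27.5 (log2 difference 1.40, SE 0.22, adjusted p = 0.000241). Hippocampus replicate 2 was the highest library for both, and the interferon list had 4 higher without that library, 3 without prefrontal cortex replicate 1 and 1 with the choroid plexus covariate. Among lysosomal genes, the cholesterol transfer protein Npc2 read 49.4, 60.7 and 47.7 against 32.7, 33.2 and 31.9 (log2 difference 0.67, SE 0.12, adjusted p = 0.000939). The membrane protein Lamp2 read 27.5, 31.9 and 27.1 against 19.2, 19.9 and 20.4 (log2 difference 0.53, SE 0.09, adjusted p = 0.000357). The lysosomal count was 7 without hippocampus replicate 2, 8 without prefrontal cortex replicate 1 and 9 without prefrontal cortex replicate 2 or 3 or with the covariate. The complement count was 7 without hippocampus replicate 2 or prefrontal cortex replicate 1, and 5 with the covariate. In wildtype 3 of 14, 0 of 25 and 2 of 26 of these genes were called by limma. Of the 25 interferon-induced genes 1 passed an unadjusted p of 0.05 there, and 0 were called by voom.

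**Figure D3:**
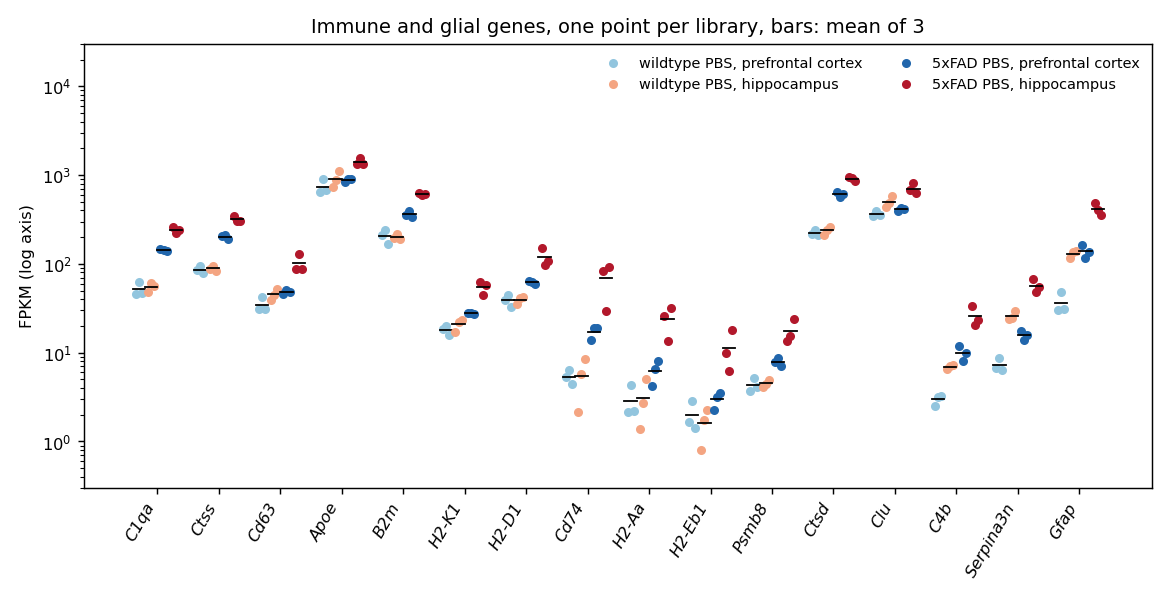
FPKM on a log axis of 16 immune and glial genes in wildtype PBS (pale) and 5xFAD PBS (dark), prefrontal cortex in blue and hippocampus in red, one point per library with a bar at each mean of 3. The wildtype regions overlap for 12 of the genes, all but Clu, C4b, Serpina3n and Gfap, while in 5xFAD PBS every hippocampus library lies above every cortex library for all 16 genes.

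Reactive astrocyte genes were higher at 11 of 14 members with a median of 0.74, and 4 of 14 were higher in wildtype. Glial fibrillary acidic protein, Gfap, stood at 480.1, 404 and 354 FPKM in hippocampus against 163, 116 and 137 (log2 difference 1.57, SE 0.18, adjusted p = 1.34e-05), and in wildtype at 115, 135 and 139 against 30.05, 48.1 and 30.8 (1.85). Serpina3n, a secreted protease inhibitor, read 66.9, 48.5 and 55.2 against 17.5, 14 and 16 (log2 difference 1.80, SE 0.14, adjusted p = 3.85e-07), and in wildtype 24.1, 24.4 and 29.3 against 6.75, 8.79 and 6.31 (1.77). Both genotypes thus showed more of both genes in hippocampus, and the differences between the genotypes in this regional difference were -0.28 (SE 0.25, adjusted p = 0.926) and 0.03 (SE 0.20, adjusted p = 0.983). The hyaluronan receptor Cd44 (2.06, 1.48 and 2.23 against 0.593, 0.912 and 0.492, difference 1.06) and vimentin, Vim (68.5, 84.5 and 46 against 25.5, 31.1 and 30.1, difference 1.15), which meninges and vessels also express, rose too. The count of 11 was 6 without prefrontal cortex replicate 1 or hippocampus replicate 1, and 4 with the covariate. Of 24 genes of astrocyte identity, 8 were higher and 1 lower. The matrix protein Sparc, which vessels and microglia also make, read 154, 184 and 212 against 84, 98.7 and 104 (log2 difference 0.93, SE 0.20, adjusted p = 0.00293). The water channel Aqp4 read 45.4, 36.4 and 42.2 against 27.4, 26.3 and 26.4 (log2 difference 0.62, SE 0.15, adjusted p = 0.00791). Chrdl1, a BMP antagonist of upper layer astrocytes, read 0.824, 0.546 and 0.596 against 2.78, 3.5 and 3.2 (log2 difference -1.67, SE 0.16, adjusted p = 2.43e-06). Apoe and clusterin, Clu (673, 807 and 636 against 395, 427 and 415, log2 difference 0.77, SE 0.12, adjusted p = 0.000233), lipoproteins that astrocytes secrete, were both higher. With the covariate 0 of the identity genes were higher.

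Oligodendrocyte and myelin genes were higher at 18 of 20 members, none lower, with a median of 0.52, and 15 were higher in wildtype with a median of 0.69. Myelin basic protein, Mbp, read 745, 947 and 787 FPKM against 543, 534 and 578 (log2 difference 0.58, SE 0.16, adjusted p = 0.0136). Cnp, a myelin enzyme, read 125, 155 and 136 against 100.4, 90.2 and 103 (log2 difference 0.50, SE 0.10, adjusted p = 0.00136). The tight junction protein Cldn11 read 93.9, 114 and 78.4 against 58.1, 57.8 and 63.1 (log2 difference 0.66, SE 0.12, adjusted p = 0.0011). Transferrin, Trf, read 207, 243 and 191 against 119, 108 and 123 (log2 difference 0.86, SE 0.13, adjusted p = 0.000222). Every hippocampus library exceeded every cortex library in these 4 genes, and hippocampus replicate 2 was the highest in each. Without that library 9 of the 20 were called and Mbp was not (adjusted p = 0.0739), and none of the 20 was called with the choroid plexus covariate. Over all 19 settings, the covariate included, the smallest differences were 0.45 for Mbp, 0.40 for Cnp, 0.52 for Cldn11 and 0.43 for Trf. Enpp2, autotaxin, belongs to both myelin and choroid plexus and read 432, 1060.1 and 454 against 64.5, 63.1 and 62.2 (log2 difference 3.22, SE 0.62, adjusted p = 0.00133), with a difference of -0.0013 in wildtype and -0.37 in 5xFAD PBS once the choroid plexus covariate was in the model. Of the lineage factors, Sox10 read 16.1, 17.8 and 16.2 against 11.3, 11.5 and 12.1 (log2 difference 0.50, SE 0.08, adjusted p = 0.000359).

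Genes of the tissues that border the ventricle were higher in hippocampus, and Ttr had the largest rise of all tested genes. All 19 choroid plexus markers were higher in hippocampus, with a median of 3.88. Transthyretin, Ttr, the thyroid hormone carrier that choroid plexus secretes into cerebrospinal fluid, read 2532, 8684 and 2697 FPKM against 5.76, 3.18 and 4.47 (log2 difference 9.65, SE 1.51, adjusted p = 0.000266). The folate receptor Folr1 read 14, 50.4 and 15.2 against 0.172, 0.0841 and 0.0771 (log2 difference 5.21, SE 0.84, adjusted p = 0.000342). Klotho, Kl, read 27.7, 61.9 and 24.9 against 0.616, 0.477 and 0.543 (log2 difference 5.09, SE 0.73, adjusted p = 0.000128). Hippocampus replicate 2 was the highest library for these 3 genes, and the other hippocampus libraries still lay far above cortex. In wildtype hippocampus Ttr read 29.7, 76.5 and 159 and the 19 markers summed to 41.8 to 185 FPKM, and 1 of 19 was called. The excess was also seen in 5xFAD mice given EV, where the markers of the list Choroid plexus epithelium summed to 5829, 2322 and 198 FPKM in hippocampus and to 18.7, 14 and 890 in cortex. There 9 of the 19 were called higher in hippocampus, with a median of 2.03. Ependymal genes were higher at 10 of 12 members in both genotypes, with medians of 1.97 and 1.75, and the cilia factor Foxj1 read 6.23, 15.3 and 5.22 against 1.11, 1.79 and 2.08 (log2 difference 2.0, SE 0.43, adjusted p = 0.00277). Without hippocampus replicate 2 the ependymal count was 6 and the choroid plexus count 17, and voom on the recovered reads gave 6 and 14. With the covariate both counts were 0, the choroid plexus list being the covariate itself. Meningeal fibroblast genes had 6 of 14 higher, led by decorin, Dcn (47.8, 49.98 and 35.4 against 5.54, 8.23 and 7.29, log2 difference 2.58, SE 0.28, adjusted p = 1e-05), and 3 without hippocampus replicate 2 or prefrontal cortex replicate 1 and 10 without hippocampus replicate 3. Endothelial genes had 2 of 17 higher and genes of pericytes and smooth muscle 1 of 14, and without hippocampus replicate 3 both lists had 5, while without prefrontal cortex replicate 1 or hippocampus replicate 2 both had 0. Endothelial calls were 1 without prefrontal cortex replicate 2 or hippocampus replicate 1, and pericyte calls 0 without prefrontal cortex replicate 2 or 3 or hippocampus replicate 1. Prr32 and Defb11, which no list holds, were listed at 0 in all 3 cortex libraries and read 8.52, 24.9 and 7.28 and 4.14, 16.9 and 4.03 in hippocampus, highest in replicate 2.

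**Figure D4:**
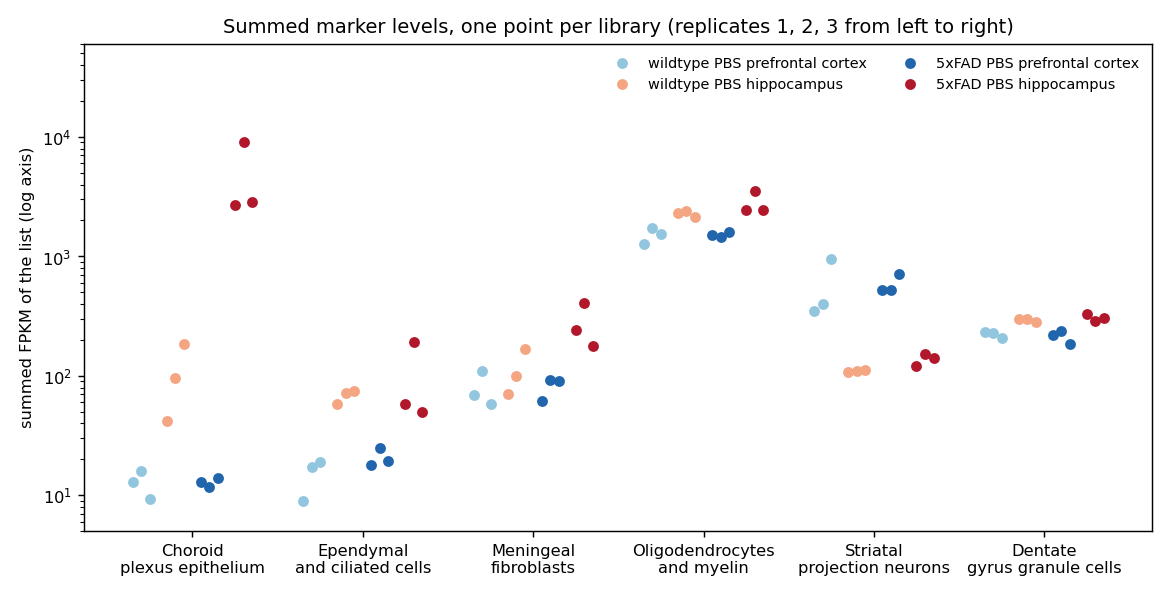
Summed FPKM on a log axis of 6 marker lists in wildtype PBS (pale) and 5xFAD PBS (dark), prefrontal cortex in blue and hippocampus in red, one point per library. Choroid plexus markers in 5xFAD PBS hippocampus (2687 to 9089) lie far above the other groups drawn (up to 185), whereas myelin, striatal and dentate markers separate the regions in both genotypes.

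Most genes of the amyloid precursor, the transgene promoter and the secretases were not called, while some genes of amyloid clearance were. App, whose reads may include the human transgene, stood at 92.1, 87.8 and 93.3 FPKM in hippocampus and 102, 100.3 and 98.9 in cortex (log2 difference -0.14, SE 0.06, adjusted p = 0.0921), and Thy1, whose promoter drives the transgenes, at 1330.2, 1293 and 1075 against 1094, 1151 and 1048 (difference 0.16, adjusted p = 0.395). Neither passed the test, and the App libraries did not overlap. The direction turned to 0.13 for App with the trend over gene length removed and to -0.17 for Thy1 after quantile normalization. Of 16 genes of the precursor, the promoter and the secretases, 2 were higher and 1 lower: the gamma-secretase subunit Psen2 (6.37, 6.5 and 6.66 against 5.13, 4.57 and 5.07, log2 difference 0.37, SE 0.10, adjusted p = 0.0144) and the sheddase Adam17 (difference 0.38) rose and tau, Mapt, fell (difference -0.24). Each of the 3 calls was lost in 1 or more fits that left out a library: Psen2 without prefrontal cortex replicate 2 (adjusted p = 0.0590), Adam17 without prefrontal cortex replicate 3 or hippocampus replicate 1 or 2 (0.0651 to 0.0971), and Mapt without prefrontal cortex replicate 1 or 2 or hippocampus replicate 2 (0.0559 to 0.168). Of 10 genes of amyloid degradation and clearance, Apoe, Clu and Ctsd were higher and 1 was lower. Neprilysin, Mme, an amyloid-degrading protease, was lower (0.609, 0.443 and 0.584 against 1.5, 1.57 and 1.7, log2 difference -1.0, SE 0.28, adjusted p = 0.0163). That call was lost without prefrontal cortex replicate 3 (0.0523) or hippocampus replicate 2 (0.0650).

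Genes of fatty acid handling were higher in hippocampus at 9 of 17 members, and most genes of cholesterol synthesis were not called. In the first list none was lower, and the median was 0.46. Cd36, the fatty acid and scavenger receptor that the study's title names as vesicle cargo, read 1.41, 1.33 and 2.32 FPKM in hippocampus and 0.169, 1.04 and 0.991 in cortex (log2 difference 0.90, SE 0.31, adjusted p = 0.0414). Prefrontal cortex replicate 1 was the lowest library. The Cd36 call was lost in 11 of 19 settings, with an adjusted p of up to 0.41. Among these were the fits without that library (adjusted p = 0.235) and without any 1 of the hippocampus libraries (0.0558 to 0.146). The mitochondrial carnitine transferases Cpt1a (9.28, 10.9 and 8.18 against 5.02, 5.54 and 6.08, log2 difference 0.71, SE 0.15, adjusted p = 0.00215) and Cpt2 (5.28, 6.52 and 4.35 against 1.74, 2.72 and 1.97, log2 difference 1.16, SE 0.20, adjusted p = 0.000487) were called in each of those fits. The list had 4 higher without prefrontal cortex replicate 1, 5 without hippocampus replicate 2 and 1 with the choroid plexus covariate. Of 23 cholesterol synthesis genes, 5 were lower and none higher, with a median of -0.0988. Stard4, a sterol carrier, read 7.85, 6.22 and 7.17 against 11.1, 10.9 and 9.96 (log2 difference -0.56, SE 0.11, adjusted p = 0.00164). In this list 2 genes were lower without hippocampus replicate 2 or prefrontal cortex replicate 1.

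Immediate early genes, which neurons switch on with activity, split with 5 of 30 higher and 6 lower. Nr4a3, an orphan nuclear receptor, stood at 13.4, 10.4 and 10.2 FPKM in hippocampus against 1.9, 2.77 and 2.63 (log2 difference 2.01, SE 0.17, adjusted p = 5.8e-07). Jun read 39.3, 35.5 and 38.2 against 10.6, 13.3 and 15.4 (log2 difference 1.5, SE 0.12, adjusted p = 3.2e-07). The pentraxin Nptx2, which clusters AMPA receptors, was lower at 6.59, 7.57 and 5.36 against 15.2, 15.5 and 15.7 (log2 difference -1.20, SE 0.19, adjusted p = 0.000338). So were Fosb (1.39, 1.11 and 1.57 against 2.36, 2.58 and 3.61, difference -0.84) and Homer1 (8.58, 6.09 and 6.98 against 14.4, 13.7 and 15.9, difference -0.99). Prefrontal cortex replicate 3 was the highest library for Fosb. None of 30 ribosomal protein genes and none of 31 nuclear genes of oxidative phosphorylation was called by limma, though 9 and 1 passed an unadjusted p of 0.05. Voom called 0 and 0, and 5 and 1 were called after quantile normalization and 2 and 2 without hippocampus replicate 1.

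The differences between regions were compared with those of wildtype mice given PBS, which share no library with them. Of the 2156 wildtype calls, 1673 were called in the same direction in 5xFAD PBS, which is 77.6% of the wildtype calls and 49.1% of the 5xFAD PBS calls, and 0 in the opposite direction. A call in 1 genotype only is not by itself a difference between them. The test of that difference called 0 genes by limma, with a lowest adjusted p of 0.53, and 787 genes (5.80%) at an unadjusted p under 0.05, and voom on the recovered reads also called 0. Against 5xFAD mice given EV the same test called 0 genes (lowest adjusted p 0.992, 680 genes or 5.01% at an unadjusted p under 0.05, and 0 by voom). In a fit of only the 12 PBS libraries, 42 of 13384 genes were called against wildtype, all with a larger hippocampus excess in 5xFAD PBS. Of the 42, 15 are in the choroid plexus list and 3 in other lists: Enpp2, the stress peptide receptor Crhr2 and the serotonin receptor Htr2c, a receptor that choroid plexus epithelium carries at high density. The rest, Prr32 and Defb11 among them, are in no list, and how many of them come from choroid plexus was not tested. Htr2c read 17, 25.3 and 18.7 FPKM in hippocampus and 13.6, 12.8 and 14.7 in cortex of 5xFAD PBS, and 10.4, 8.38 and 10.9 and 15.4, 15 and 18.3 in wildtype. Its difference in 5xFAD PBS was 0.53 (adjusted p = 0.175) and -0.58 with the choroid plexus covariate. The cathepsin Ctsc, a lysosomal protease outside every list and picked out after its values were seen, was also among the 42, with means of 3.54 in hippocampus and 1.65 in cortex against 1.11 and 0.908 in wildtype.

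List medians lay closer together in the 2 genotypes for some lists than for others, with no test of a list. Medians in 5xFAD PBS and wildtype were 0.50 and 0.54 for dentate granule markers, -0.94 and -0.85 for upper layer markers and -1.77 and -1.93 for striatal markers. Further lists lay at -1.24 and -0.65 for opioid and cannabinoid receptors and peptides, -0.11 and -0.53 for immediate early genes and 0.07 and -0.30 for serotonin receptors. Among immune lists they were 0.29 and -0.016 for homeostatic microglia, 0.57 and 0.04 for disease-associated microglia, 0.71 and 0.09 for complement, 0.87 and 0.07 for MHC class I and 1.71 and -0.07 for MHC class II. These medians are descriptions, since the genes of a list are not independent of each other, and no gene of these lists passed the test between genotypes over all 18 libraries. In vesicle-treated 5xFAD mice the count was 10 of 14 for microglia of all states, 13 of 33 for disease-associated microglia, 5 of 10 for MHC class I and 1 of 6 for MHC class II.

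**Figure D5:**
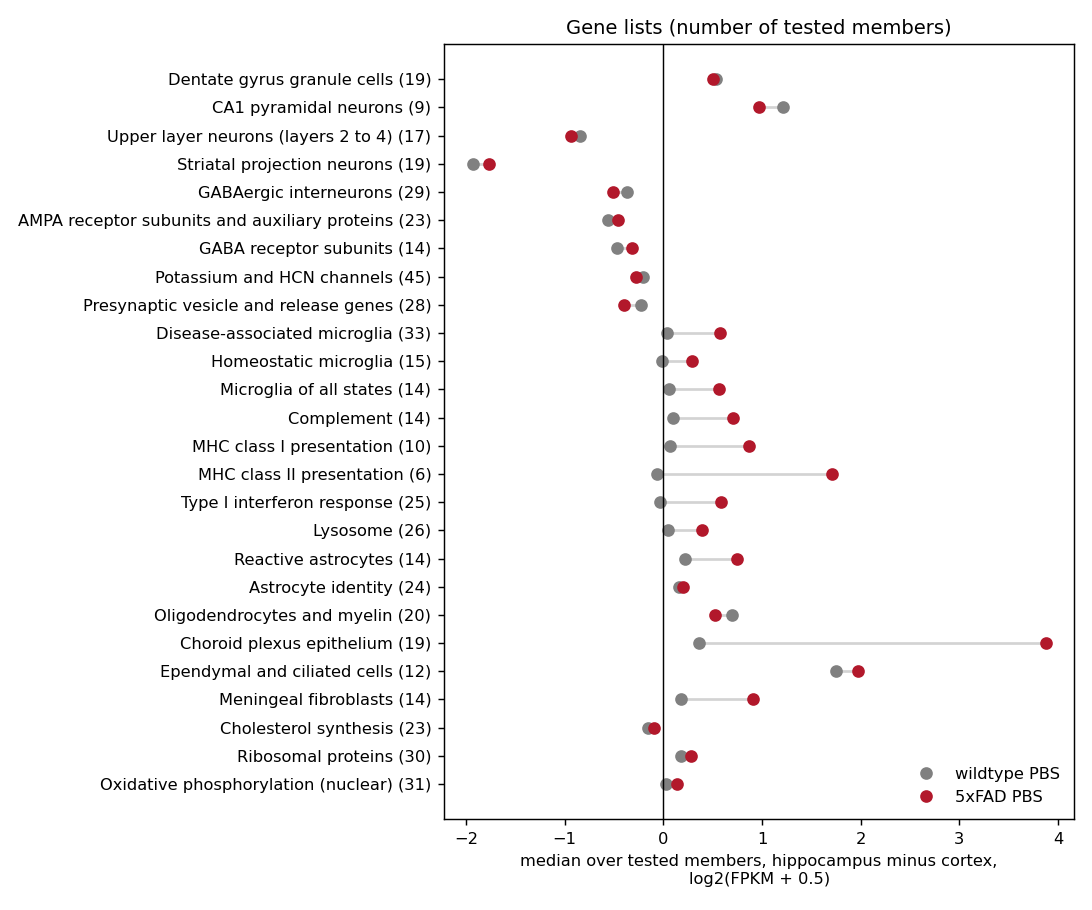
Median over the tested members of 26 of the 61 gene lists of the difference between hippocampus and prefrontal cortex in log2(FPKM + 0.5), for 5xFAD PBS (red) and wildtype PBS (grey), with the number of tested members in brackets. Among the lists drawn, MHC class II (1.71 against -0.07) and choroid plexus (3.88 against 0.36) have the widest gaps between the genotypes, and dentate granule markers (0.50 against 0.54) a narrow one.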

How the data were processed

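Bulk RNA was sequenced in 18 libraries of 6 groups, 3 a group. The authors deposited a table of FPKM values for 18683 genes, with fastp, HISAT2, HTSeq and mouse build GRCm39 listed, without versions, per the submitters' processing notes. For strand setting, annotation and gene lengths the sources used here have no entry. Because the authors' FPKM values are whole multiples of 1 step per gene (100% of genes, within 0.01 reads), reads per library were recovered, 26437860 to 36901748 over all 18 libraries.

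Differences were fitted with limma 3.58.1 (R 4.3.3, lmFit and eBayes with a variance trend) on log2(FPKM + 0.5), with a mean for each of the 6 groups, for genes at 0.5 FPKM or more in at least 3 libraries. P-values were adjusted by Benjamini-Hochberg. Of 1057 genes in 61 lists, 1045 were in the table and 979 were tested. Named genes are the 20 largest rises (counted also outside choroid plexus, ependymal and meningeal lists) and falls among called genes with a group mean of at least 1 FPKM and non-overlapping libraries, the 10 largest called differences in each direction between genotypes or treatments (none was called), up to 6 called genes and the 3 most abundant others of each list, and always App, Thy1, Cd36 and Trem2; a part of these is printed. Ctsc was named after its values were seen. The members and lists were chosen with earlier results of these data known. The fit was tested on simulated data. Alternatives covered pseudocount, filter, scaling, variance prior, voom, a replicate block, a choroid plexus covariate, gene length, the libraries fitted and leaving out each library. The main fit did not pair libraries by number, because no label ties a number in both regions to 1 mouse. In 5xFAD PBS, same-numbered libraries of the regions correlated in their deviations at 0.381, 0.495 and 0.0118. Differently numbered ones correlated at -0.497 to 0.171, which leaves pairing undecided.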

Additional observations from a re-analysis of the deposited data

How the results depend on the processing

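Of 163 genes named, 153 were called, 144 of them whichever of the 6 libraries was dropped and 67 under all 19 settings. Leaving out 1 library gave 1264 to 2015 genes higher and 876 to 1305 lower in hippocampus, and 0 genes between genotypes or treatments. With the choroid plexus covariate 281 were higher and 138 lower. Against wildtype, the 12 PBS libraries alone gave 42 genes and 55 with the replicate block, and against EV no filter gave 1; the cause was not tested. The replicate block gave 2126 higher and 1332 lower over 18 libraries, and 2886 and 1873 over the 6 libraries alone, a fit chosen after seeing the data; hippocampus replicates 1 and 2 correlated best with their own number in cortex and replicate 3 did not. The direction turned for Thy1 after quantile normalization (-0.17), for App (0.13) and Sst (-0.0899) with the length trend removed, and with the choroid plexus covariate for Defb11 (-0.66), Enpp2 (-0.37), Htr2c (-0.58), P2ry12 (0.62) and Syp (0.15). In the fits that left out 1 of the 6 libraries, P2ry12 ranged from -0.0758 without prefrontal cortex replicate 1 to 0.0375. In these it turned without prefrontal cortex replicate 2 (0.0375) or 3 (0.0353) and without hippocampus replicate 2 (0.0142) or 3 (0.0347). With 3 libraries a group, low genes are limited by reads: 1 read is worth 0.00864 to 0.0101 FPKM at the median gene length.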
